A study of Mus musculus with 88 samples.

Results

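Transcripts of 9 circadian clock genes were followed mouse by mouse in the cortex: the period genes Per1, Per2 and Per3, the REV-ERB genes Nr1d1 and Nr1d2, the activator gene Arntl (BMAL1) and the genes Dbp, Tef and Hlf of the PAR bZIP transcription factor family. They were taken by symbol from the 14451 genes of the expression table, and all 9 passed the filter of a mean of at least 1 CPM, the reads of each gene relative to those of its whole library, that left 14086 genes for testing. RNA came from the cortex of 88 mice aged 6.5 months, 1 library per mouse. All mice carried human APOE3 or APOE4 in place of the mouse gene on a C57BL/6 background, with or without the APP/PS1dE9 transgenes (mutant human APP and presenilin 1 under the mouse prion promoter, named in the study's methods; the growth protocol in the labels describes another APP line) and with or without Trem2, a receptor that microglia carry. The APP-transgenic genotypes were APP/E4/Trem2ko (16 mice), APP/E4 (14), APP/E3/Trem2ko (14) and APP/E3 (14), and the genotypes with no APP transgene were E4/Trem2ko (8), E4 (6), E3/Trem2ko (8) and E3 (8); the sexes were equal in number except in E4 (4 females and 2 males).

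The mammalian clock is a feedback loop of transcription. CLOCK and BMAL1 bind E-box sequences and drive the Per and Cry genes, whose proteins then repress CLOCK and BMAL1, while the REV-ERB proteins repress Arntl through ROR elements. The PAR bZIP factors DBP, TEF and HLF carry the rhythm to genes with D-box sequences. Per1 is in addition an early response gene that is induced by neuronal activity through CRE sequences, and it is also induced by glucocorticoids. Because each of these transcripts can change over a day, the hour at which tissue is taken can affect its level; that hour is not given in the sources used here and was not modelled.

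These sequence elements were looked up in the promoter windows of RefSeq (GRCm38.p6), each 250 bases before and 50 after a transcription start, on both strands. The letters searched were CACGTG for the E-box, TTANGTAA for the D-box, TNGGTCA for the ROR element and TGACGTCA for the full CRE. Windows were found for 8 of the 9 genes (11 windows; none for Per2). Of 14339 windows of all genes, 9.57% held the E-box, 1.49% the D-box, 9.37% the ROR element and 2.93% the CRE. The 7 windows below, 1 per gene with the first where there are several, are shown so that windows with an element can be set beside windows with none of them; each is read 5′ to 3′ along its gene, with matches in capitals.
Per1 (chr11:69098699-69098998, plus strand): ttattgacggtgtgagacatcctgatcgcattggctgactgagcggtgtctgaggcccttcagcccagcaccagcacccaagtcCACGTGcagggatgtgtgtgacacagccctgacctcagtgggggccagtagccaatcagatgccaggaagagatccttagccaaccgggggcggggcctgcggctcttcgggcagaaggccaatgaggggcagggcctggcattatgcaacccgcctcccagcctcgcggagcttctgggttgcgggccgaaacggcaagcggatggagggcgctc
Per3 (chr4:151044616-151044915, minus strand): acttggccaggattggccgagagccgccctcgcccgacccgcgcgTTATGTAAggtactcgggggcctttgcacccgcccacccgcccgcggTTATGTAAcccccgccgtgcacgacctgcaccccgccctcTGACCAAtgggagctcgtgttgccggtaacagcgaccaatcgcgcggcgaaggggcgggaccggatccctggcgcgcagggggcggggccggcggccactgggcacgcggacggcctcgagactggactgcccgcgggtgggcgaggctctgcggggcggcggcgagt
Arntl (chr7:113207215-113207514, plus strand): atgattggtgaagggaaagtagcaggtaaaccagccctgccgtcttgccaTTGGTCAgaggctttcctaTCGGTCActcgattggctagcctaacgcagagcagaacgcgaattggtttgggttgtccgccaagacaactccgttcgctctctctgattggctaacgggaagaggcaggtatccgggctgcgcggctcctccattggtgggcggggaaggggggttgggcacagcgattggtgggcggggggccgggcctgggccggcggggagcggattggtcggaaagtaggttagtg
Tef (chr15:81802423-81802722, plus strand): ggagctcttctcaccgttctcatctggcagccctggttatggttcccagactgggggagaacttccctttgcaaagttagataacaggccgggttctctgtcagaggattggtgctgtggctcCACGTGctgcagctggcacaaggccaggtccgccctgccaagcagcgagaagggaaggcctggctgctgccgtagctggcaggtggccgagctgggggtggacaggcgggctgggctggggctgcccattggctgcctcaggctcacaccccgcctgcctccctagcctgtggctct
Hlf (chr11:90390868-90391167, minus strand): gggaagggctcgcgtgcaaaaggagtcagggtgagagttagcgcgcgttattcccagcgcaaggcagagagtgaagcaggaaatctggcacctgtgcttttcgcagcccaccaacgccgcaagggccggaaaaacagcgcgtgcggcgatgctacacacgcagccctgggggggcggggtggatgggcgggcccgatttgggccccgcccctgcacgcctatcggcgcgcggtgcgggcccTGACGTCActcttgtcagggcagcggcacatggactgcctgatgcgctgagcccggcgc
Dbp (chr7:45704997-45705296, plus strand): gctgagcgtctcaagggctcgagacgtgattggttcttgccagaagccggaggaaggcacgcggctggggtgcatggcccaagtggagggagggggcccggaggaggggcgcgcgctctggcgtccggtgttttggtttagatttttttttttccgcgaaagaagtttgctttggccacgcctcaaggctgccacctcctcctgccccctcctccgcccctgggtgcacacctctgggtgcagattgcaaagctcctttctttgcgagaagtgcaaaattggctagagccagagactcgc
Nr1d1 (chr11:98775328-98775627, minus strand): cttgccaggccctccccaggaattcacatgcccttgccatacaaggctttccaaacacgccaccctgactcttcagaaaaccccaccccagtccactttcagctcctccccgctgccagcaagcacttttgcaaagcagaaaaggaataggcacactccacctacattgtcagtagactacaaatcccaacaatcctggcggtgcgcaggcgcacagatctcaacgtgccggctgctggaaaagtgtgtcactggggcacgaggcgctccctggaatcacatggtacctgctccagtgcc
The E-box lay at base -166 from the start in Per1 and at -127 in Tef. Per3 held 2 D-boxes and, at -118, 1 ROR element on the other strand. The Arntl window held 2 ROR elements, and the Hlf window held the CRE at -9. None of the 4 motifs was in the windows of Dbp, Nr1d1 and Nr1d2. A match is a stretch of letters and was not tested as a binding site.

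The libraries held 41.3 M to 95.5 M reads (median 49.8 M), so that 1 read stood for 0.0105 to 0.0242 CPM and a clock gene was never covered by fewer than 866 reads. Trem2 reached at most 4.65 CPM in Trem2ko mice, against at least 7.18 CPM in mice with wild-type Trem2. Markers of cortical neurons were present in every library (12 of 12 measured, summed level 8003 to 13827 CPM). Markers of striatal neurons were uneven: their summed level was 175 to 232 CPM in E4/Trem2ko and 217 to 2665 CPM in E4, and 195 to 390 CPM in E3/Trem2ko and 215 to 2449 CPM in E3. The striatal receptor gene Drd2 reached 10 CPM or more in 21 libraries, of every genotype but E4/Trem2ko and E3/Trem2ko. Keratin transcripts of stratified epithelium (Krt13, Krt4 and Krt6a, together at least 1 CPM) were found in 31 libraries, all of APOE4 mice (10 APP/E4/Trem2ko, 10 APP/E4, 7 E4/Trem2ko and 4 E4), and the ribosomal precursor Rn45s had genotype medians of 4104 to 6289 CPM in APOE4 mice and 1115 to 1276 CPM in APOE3 mice. In bulk tissue, fewer cells of a type and less RNA per cell cannot be told apart.

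Of the APP/E4/Trem2ko mice, 2 stood apart from the other 86 mice in these genes: E4127, a male with the deepest library, and E4132, a female with 1268 CPM of the choroid plexus gene Ttr. Dbp had 20.2 CPM in E4127 and 25.2 CPM in E4132, and 33.6 to 95.6 CPM in the other 86 mice. Nr1d1 had 159 CPM in E4127 and 172 CPM in E4132, and 181 to 382 CPM in the others. Both genes were thus below every other mouse, and Arntl was above every other mouse, with 46.8 CPM in E4127 and 48.1 CPM in E4132 against 19.1 to 42.5 CPM. Per1 had 50.05 CPM in E4127 and 74.5 CPM in E4132, under the 75.6 to 275 CPM of the 14 other mice of the genotype, whereas Per2, Per3, Nr1d2, Tef and Hlf lay inside the range of the others. Of the genes of other clock lists, Bhlhe41 (DEC2, a repressor of CLOCK and BMAL1) had 8.17 CPM in E4127 and 8.74 CPM in E4132 against 23.5 to 67.4 CPM, and Nampt, an enzyme of NAD synthesis, had 72.0 CPM in E4127 and 72.1 CPM in E4132 against 42.2 to 59.6 CPM. Usp2 had 74.3 CPM in E4127 and 65.5 CPM in E4132 against 76.9 to 127.7 CPM. No other gene among the 18 other clock genes and 12 clock output genes measured had both mice outside that range. The pair stood apart well beyond the clock: both were outside the range of the other 86 mice in 20.3% of the 14086 genes tested. Calls that rest on APP/E4/Trem2ko are given with and without both mice.

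Levels per length differed widely among the 9 genes. Divided by the summed exon length of the gene (GENCODE M21, GRCm38), the mean level over 88 mice was highest for Nr1d1 (91.4 CPM per kilobase), Tef (54.6 CPM per kilobase) and Hlf (46.1 CPM per kilobase). Per1 (23.6 CPM per kilobase), Nr1d2 (20.6 CPM per kilobase) and Dbp (19.3 CPM per kilobase) followed, and Per2 (6.29 CPM per kilobase), Arntl (4.33 CPM per kilobase) and Per3 (3.61 CPM per kilobase) were lowest. The genes lie on several chromosomes, with Dbp (chr7:45705088-45710203) and Arntl (chr7:113207465-113314126) on that of Apoe, 26.0 and 93.5 megabases from it. Per1 (chr11:69095217-69109960), Hlf (chr11:90336536-90390895) and Nr1d1 (chr11:98767932-98775333) share chromosome 11.

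Levels are given here as the mean ± SD over the mice of each genotype (8 mice for each genotype with no APP transgene except E4 with 6, 14 for each with APP except APP/E4/Trem2ko with 16). Nr1d1 averaged 249.9 ± 40.0 CPM in APP/E4/Trem2ko, 246 ± 33.4 CPM in APP/E4, 301 ± 26.3 CPM in APP/E3/Trem2ko and 311 ± 38.4 CPM in APP/E3 in the mice with APP. In the mice with no APP transgene it averaged 272 ± 24.5 CPM in E4/Trem2ko, 255 ± 43.4 CPM in E4, 307 ± 17.2 CPM in E3/Trem2ko and 321 ± 32.5 CPM in E3. The 4 APOE3 genotypes stood above the 4 APOE4 genotypes in the order of the Nr1d1 means. Dbp averaged 48.1 ± 12.9 CPM in APP/E4/Trem2ko, 51.5 ± 9.19 CPM in APP/E4, 58.2 ± 8.43 CPM in APP/E3/Trem2ko and 72.0 ± 17.1 CPM in APP/E3 in the mice with APP. In the mice with no APP transgene it averaged 54.5 ± 6.27 CPM in E4/Trem2ko, 56.0 ± 9.46 CPM in E4, 56.8 ± 9.42 CPM in E3/Trem2ko and 68.3 ± 10.7 CPM in E3. Dbp had the same split, with the 4 APOE3 genotypes on top. Neighbours in either order differed by less than the smaller of their SDs except at the step between APP/E3/Trem2ko (301 CPM) and E4/Trem2ko (272 CPM) for Nr1d1 and between E3 (68.3 CPM) and APP/E3/Trem2ko (58.2 CPM) for Dbp.

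The period genes had another order. Per1 averaged 118 ± 61.7 CPM in APP/E4/Trem2ko, 103 ± 21.6 CPM in APP/E4, 139.9 ± 57.9 CPM in APP/E3/Trem2ko and 136 ± 33.4 CPM in APP/E3 in the mice with APP. In the mice with no APP transgene it averaged 170.3 ± 59.0 CPM in E4/Trem2ko, 125 ± 41.2 CPM in E4, 186 ± 50.3 CPM in E3/Trem2ko and 114 ± 18.6 CPM in E3. E3/Trem2ko and E4/Trem2ko had the highest means of Per1, and no neighbours in the order differed by more than the smaller of their SDs. Per2 averaged 37.3 ± 17.9 CPM in APP/E4/Trem2ko, 29.1 ± 6.33 CPM in APP/E4, 36.1 ± 10.1 CPM in APP/E3/Trem2ko and 34.3 ± 9.11 CPM in APP/E3 in the mice with APP. In the mice with no APP transgene it averaged 34.8 ± 10.8 CPM in E4/Trem2ko, 31.6 ± 10.4 CPM in E4, 59.4 ± 20.5 CPM in E3/Trem2ko and 38.5 ± 16.6 CPM in E3. The mean of Per2 in E3/Trem2ko stood more than 1 SD above that of E3, the next in the order, and the other 7 genotypes followed without such a step. Hlf averaged 272 ± 107 CPM in APP/E4/Trem2ko, 277 ± 88.1 CPM in APP/E4, 326 ± 87.7 CPM in APP/E3/Trem2ko and 303 ± 73.3 CPM in APP/E3 in the mice with APP. In the mice with no APP transgene it averaged 369.5 ± 72.4 CPM in E4/Trem2ko, 292 ± 118 CPM in E4, 392.2 ± 98.0 CPM in E3/Trem2ko and 279 ± 115 CPM in E3. Hlf, a D-box activator, shared the top of its order with Per1, E3/Trem2ko before E4/Trem2ko before APP/E3/Trem2ko, with no step beyond the smaller SD.

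The remaining genes varied less between genotypes, and none of their neighbouring means differed by more than the smaller SD. Nr1d2 (REV-ERB beta) ranged between 103 ± 16.1 CPM in APP/E4 and 130.3 ± 15.5 CPM in E3/Trem2ko. Per3 ranged between 31.5 ± 7.33 CPM in APP/E4 and 38.6 ± 8.23 CPM in E3/Trem2ko. Arntl, whose protein is the activator of the loop, ranged between 30.2 ± 2.88 CPM in APP/E4 and 34.1 ± 7.29 CPM in APP/E4/Trem2ko. Tef ranged between 409 ± 28.9 CPM in APP/E4/Trem2ko and 449 ± 61.1 CPM in E4. The lowest mean was thus in APP/E4 for Nr1d2, Per3 and Arntl.

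**Figure D1:**
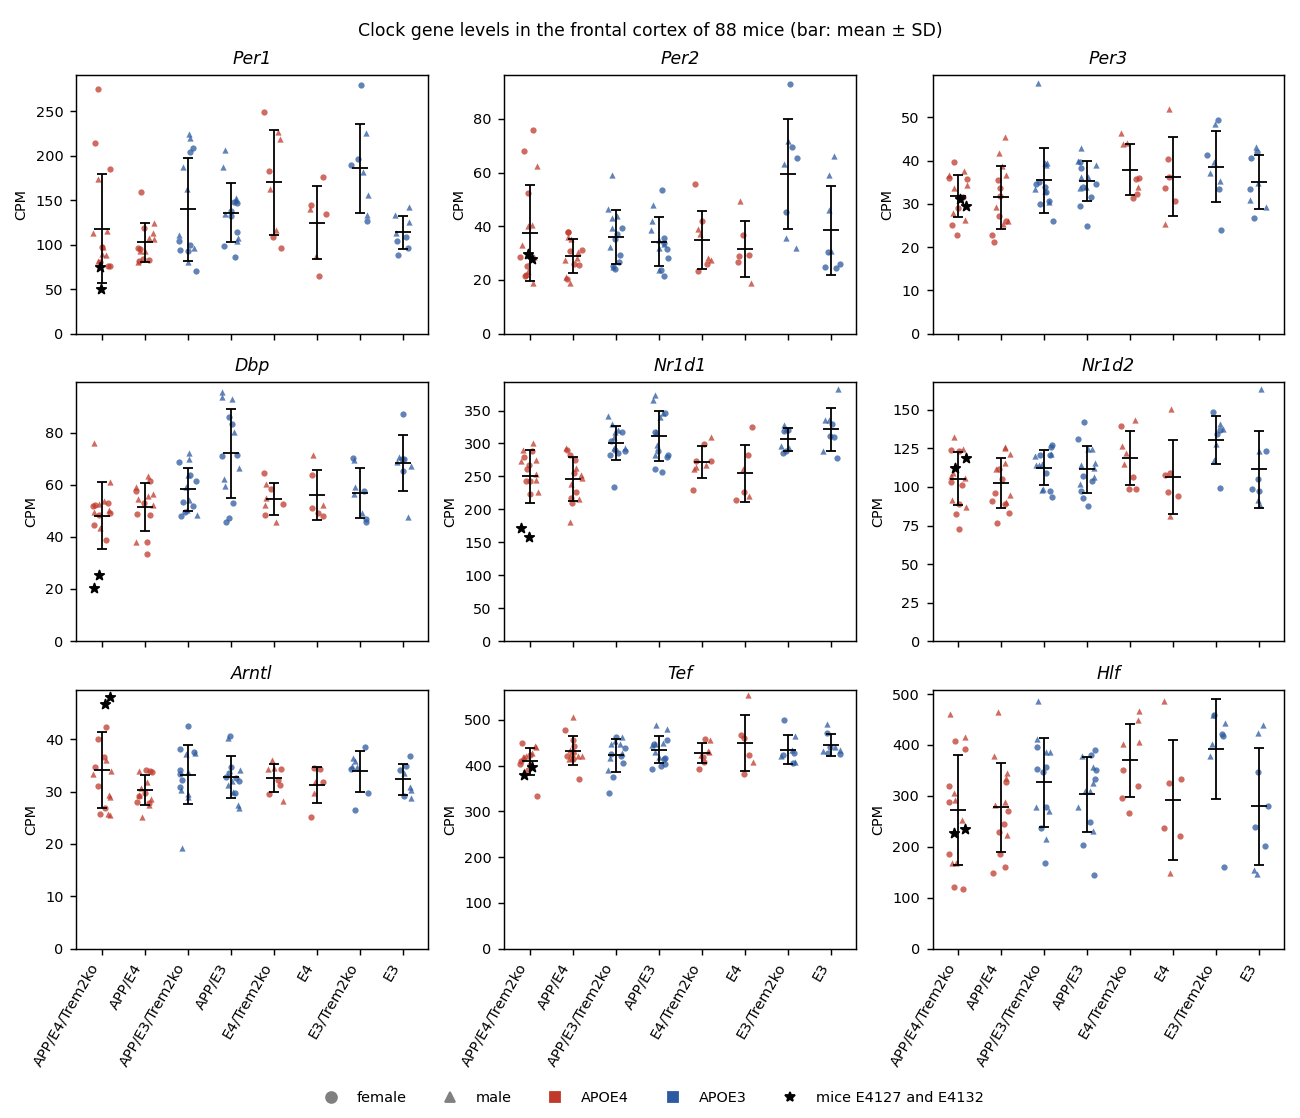
Level of each of the 9 clock genes in CPM (vertical axes) in every mouse, by genotype (horizontal axis); each point is 1 mouse (circles for females, triangles for males, color for the APOE isoform, stars for E4127 and E4132) and bars give the mean ± SD. The 2 mice E4127 and E4132 of APP/E4/Trem2ko sit lowest for Dbp (20.2 and 25.2 CPM) and Nr1d1 (159 and 172 CPM) and highest for Arntl (46.8 and 48.1 CPM).

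The comparison of APP/E4 with APP/E3 mice asks what the APOE isoform does to these transcripts in mice with amyloid. Dbp, the D-box activator, had 33.6 to 63.3 CPM (median 53.7) in APP/E4 mice, against 45.8 to 95.6 CPM (median 71.2) in APP/E3 mice. Nr1d1, which encodes REV-ERB alpha, had 181 to 293 CPM (median 249.4) in APP/E4 mice, against 257 to 374 CPM (median 308) in APP/E3 mice. For both genes the ranges overlapped, yet the highest APP/E4 mouse was below the median of the APP/E3 mice. Dbp fell by 0.46 on the log2 scale (SE 0.11, 95% confidence interval -0.69 to -0.24, limma with Benjamini-Hochberg adjusted p = 0.000782), a fold of 0.725. Nr1d1 fell by 0.34 (SE 0.07, limma adjusted p = 6.44e-05), a fold of 0.789. Per1 had 80.4 to 159 CPM (median 95.5) in APP/E4 mice and 85.9 to 206 CPM (median 136) in APP/E3 mice, and its difference of -0.39 missed the threshold (limma adjusted p = 0.0813). These log2 differences are of log2(CPM + 0.5), from 1 model of genotype and sex over the 88 mice.

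Of the 9 clock genes, 2 were thus called (adjusted p under 0.05) lower in APP/E4 mice and none higher, which has to be read against a comparison in which 33.6% of all genes tested were called and 22.7% were called lower. The median log2 difference of the 9 genes was -0.18, and that of all genes tested was -0.04. The keratin and Rn45s transcripts described above differ between these 2 genotypes as well. Without the keratin-bearing libraries, 10 of the 14 of APP/E4, Dbp differed by -0.50 and Nr1d1 by -0.38. Of the APP/E4 libraries kept, E3777, E3179 and E3475 held 6142, 7040 and 11362 CPM of Rn45s, and E3327 held 1071 CPM. The APP/E3 median was 1276 CPM. With each of the 88 libraries corrected for gene length and GC content, the differences were smaller. They were -0.30 for Dbp (limma adjusted p = 0.00988) and -0.20 for Nr1d1 (adjusted p = 0.0106). The part of Rn45s in the result was not tested.

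The same isoform contrast was made in 3 other backgrounds. In Trem2ko mice with APP, Nr1d1 had 159 to 300 CPM (median 257) in APP/E4/Trem2ko and 233 to 341 CPM (median 298) in APP/E3/Trem2ko, and it fell by 0.28 (SE 0.07, limma adjusted p = 0.00741). Without the 2 mice E4127 and E4132 the difference was -0.20 (limma adjusted p = 0.0356), and it passed no longer where libraries with high Ttr were left out (adjusted p = 0.0884). Dbp had 20.2 to 76.1 CPM (median 49.9) in APP/E4/Trem2ko and 48.1 to 72.2 CPM (median 56.6) in APP/E3/Trem2ko, a log2 difference of -0.32 that did not pass (adjusted p = 0.0749) and was -0.17 without the same 2 mice (adjusted p = 0.289). Nr1d1 was the 1 clock gene called, and 4.46% of all genes were called there, with 3.02% called lower.

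In mice with no APP transgene, Nr1d1 had 215 to 325 CPM (median 243) in E4 and 277 to 382 CPM (median 321) in E3, with only 2 of the 6 E4 mice inside the E3 range. It fell by 0.33 (SE 0.10, limma adjusted p = 0.0256) and was the 1 clock gene called; 7.72% of all genes were called and 6.01% were called lower. That call was lost with TMM scaling and with the count tests, as well as without E3 mouse D3810 or E4 mice E3459, E3473 or E3855 (adjusted p of at most 0.0973 with 1 mouse out). In Trem2ko mice with no APP transgene the called gene was Per2, a repressor of CLOCK and BMAL1, with 23.2 to 55.6 CPM (median 32.6) in E4/Trem2ko and 31.7 to 92.8 CPM (median 64.3) in E3/Trem2ko. Per2 fell by 0.74 (SE 0.23, limma adjusted p = 0.0394), where 6.21% of all genes were called and 4.68% were called lower. The Per2 call was lost in 9 of the 16 fits that left out 1 of the mice compared (adjusted p of at most 0.116), and without the keratin-bearing libraries, which left 1 E4/Trem2ko mouse whose spread was taken as that of the other genotypes, the difference was -0.35 (adjusted p = 0.946). Nr1d1 differed by -0.17 in these mice and did not pass (adjusted p = 0.242).

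Averaged over the 4 backgrounds, 3 clock genes were called lower in APOE4 than in APOE3 mice and none higher, against 40.4% of all genes called and 27.8% called lower. Nr1d1 fell by 0.28 (SE 0.04, limma adjusted p = 4.26e-08), Dbp by 0.27 (SE 0.07, adjusted p = 0.00065) and Per2 by 0.30 (SE 0.10, adjusted p = 0.0145). Nr1d2, the paralogue of Nr1d1, differed by -0.10 (adjusted p = 0.0789). Without E4127 and E4132 the 3 calls stood, at -0.26 for Nr1d1 (adjusted p = 4.82e-09), -0.24 for Dbp (adjusted p = 0.000341) and -0.30 for Per2 (adjusted p = 0.0182). The median of the 9 genes was -0.10 beside -0.03 for all genes tested, and the sign was negative for all 9 in this scaling, though that of Tef turned with TMM (0.02), edgeR (0.02) and DESeq2 (0.02) and that of Arntl without the keratin-bearing libraries (0.01). Without the keratin-bearing libraries Nr1d1 kept its call, while Dbp (-0.30) and Per2 (-0.22) did not. That fit left out 7 of the 8 E4/Trem2ko libraries, 10 of the 16 of APP/E4/Trem2ko, 10 of the 14 of APP/E4 and 4 of the 6 of E4. E4127 and E4132 were not among those left out. A fit without both the keratin-bearing libraries and these 2 mice was not run.

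**Figure D2:**
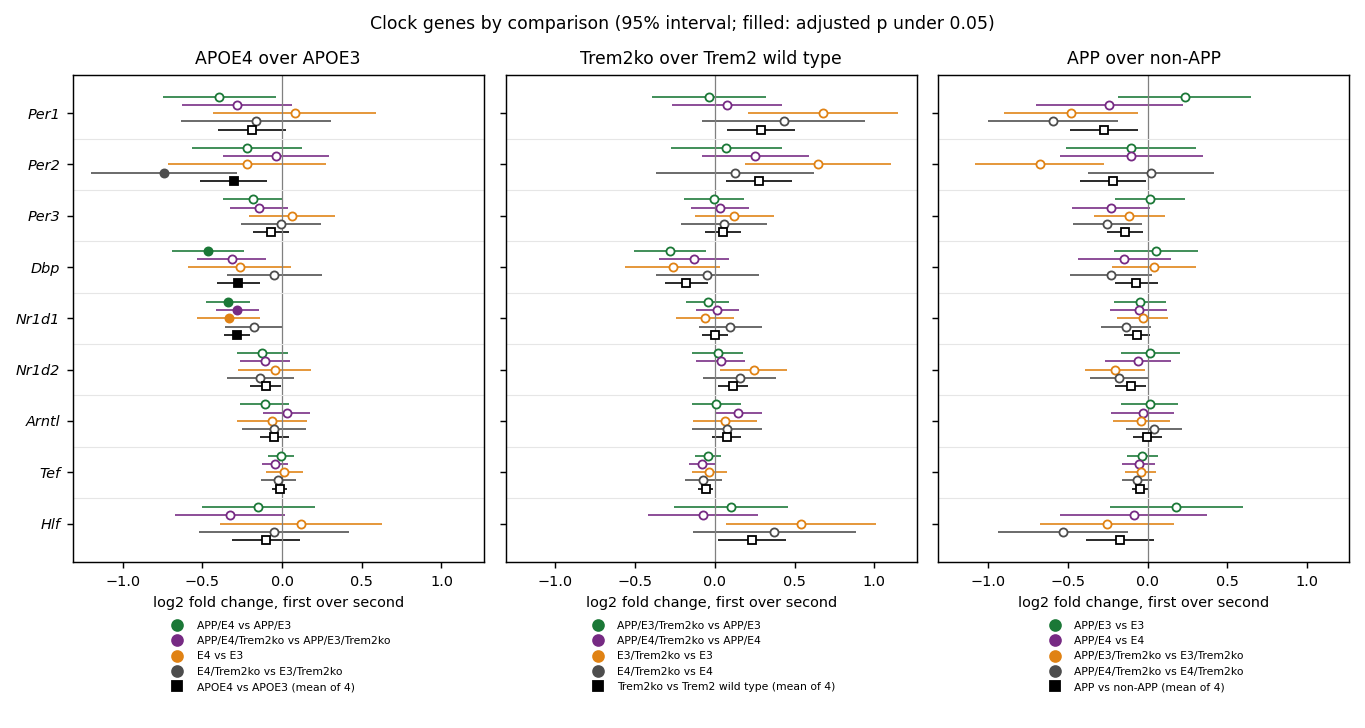
Log2 difference of each clock gene (first-named minus second-named genotype, on log2(CPM + 0.5), horizontal axes) with its 95% confidence interval from limma in the comparisons of APOE, Trem2 and APP, with filled marks for an adjusted p under 0.05. Dbp (-0.46) and Nr1d1 (-0.34) lie to the left of 0 in APP/E4 vs APP/E3, and Per1 (0.68) and Per2 (0.64) to the right of 0 in E3/Trem2ko vs E3 with intervals that also clear 0 although their adjusted p did not pass.

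Deletion of Trem2 called none of the 9 clock genes in any background by limma at an adjusted p under 0.05. Of all genes, 0.319% were called in APP/E3/Trem2ko vs APP/E3, 13.8% in APP/E4/Trem2ko vs APP/E4, 2.92% in E3/Trem2ko vs E3, 0.0994% in E4/Trem2ko vs E4 and 5.79% in the mean of the 4 backgrounds. At an unadjusted p under 0.05, 1, 1, 4, 0 and 6 of the 9 clock genes passed in those 5 comparisons. The shares of all genes tested at that threshold were 5.56%, 28.3%, 21.3%, 6.47% and 22.6%. The edgeR and DESeq2 count tests each called 1 clock gene in APP/E4/Trem2ko vs APP/E4 (Tef) and 1 in the mean of the 4 backgrounds (Per1).

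The largest of these differences were in the mice with APOE3 and no APP transgene. Per1 had 126 to 280 CPM (median 186) in E3/Trem2ko and 88.7 to 142 CPM (median 111) in E3, and 6 of the 8 E3/Trem2ko mice were above every E3 mouse. The log2 difference was 0.68 (SE 0.24, limma adjusted p = 0.0876), and it passed in the fit of the 2 genotypes alone (adjusted p = 0.0321) and without mouse D3833 (adjusted p = 0.0478). Per2 had 31.7 to 92.8 CPM (median 64.3) in E3/Trem2ko and 24.4 to 66.2 CPM (median 30.7) in E3, a difference of 0.64 (adjusted p = 0.0912). Hlf, a D-box factor, had 160 to 459 CPM (median 419) in E3/Trem2ko and 147 to 440 CPM (median 260) in E3, a difference of 0.54 (adjusted p = 0.171). Dbp, Arntl and Tef, of the same loop, differed by -0.26, 0.06 and -0.03. Striatal markers moved with this comparison, with a median log2 difference of -1.24 over the 12 genes, none of them called.

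In mice with APOE4 and no APP transgene, Per1 had 96.2 to 250 CPM (median 173) in E4/Trem2ko and 64.2 to 176 CPM (median 137) in E4, a log2 difference of 0.43 (limma adjusted p = 0.824). In the mean of the 4 backgrounds Per1 differed by 0.29 (adjusted p = 0.0906), Per2 by 0.27 (adjusted p = 0.0948) and Dbp by -0.18 (adjusted p = 0.0910). None of them passed in all 88 mice, whereas without E4127 and E4132 Per1 did (0.31, limma adjusted p = 0.0496). In the same mean, 4 of the 12 striatal marker genes were called lower, against 2.91% of all genes. With the striatal marker level as a covariate, in the mean of the 4 backgrounds, Per1 differed by 0.18, Per2 by 0.16 and Hlf by -0.0013 (0.24 without the covariate). In E3/Trem2ko vs E3 the difference was then 0.53 for Per1, 0.49 for Per2 and 0.22 for Hlf, and in E4/Trem2ko vs E4 it was 0.19 for Per1, -0.13 for Per2 and -0.16 for Hlf, where Per2 (0.13) and Hlf (0.37) had the other sign without the covariate. None of these passed with the covariate or without it. The test of whether the Trem2 difference itself depended on the APOE isoform called no clock gene in APP mice (0.369% of all genes called) or in mice with no APP transgene (0.0142% of all genes called). At an unadjusted p of 0.05, 0 of the 9 passed in either, against 15.5% and 6.77% of all genes.

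The APP transgenes called no clock gene in any background. Of all genes, 0.0213% were called between APP/E3 and E3 mice, 0.0142% between APP/E4 and E4, 0.149% between APP/E3/Trem2ko and E3/Trem2ko, 0.0781% between APP/E4/Trem2ko and E4/Trem2ko, and 1.68% in the mean of the 4 backgrounds. At an unadjusted p under 0.05, 0, 0, 3, 3 and 5 of the 9 clock genes passed by limma. The shares of all genes tested at that threshold were 5.99%, 9.29%, 16.7%, 18.5% and 16.9%. By adjusted p, edgeR called none of the clock genes while DESeq2 called 1 (Per2 in APP/E3/Trem2ko vs E3/Trem2ko). Per2 had 24.2 to 59.2 CPM (median 36.1) in APP/E3/Trem2ko and 31.7 to 92.8 CPM (median 64.3) in E3/Trem2ko, a difference of -0.68 (SE 0.20, limma adjusted p = 0.0982). Per1 had 50.05 to 275 CPM (median 93.6) in APP/E4/Trem2ko and 96.2 to 250 CPM (median 173) in E4/Trem2ko, a difference of -0.60 (adjusted p = 0.137), and Hlf differed by -0.53 there (adjusted p = 0.163). The median of the 9 clock genes in the mean over backgrounds was -0.11 beside -0.01 for all genes. The 4 tests of whether an effect differed between APP mice and mice with no APP transgene called 0 genes of all 14086 by limma and by edgeR, and 0 to 5 genes by DESeq2. In these tests 1, 0, 0 and 1 clock genes passed an unadjusted p of 0.05: Per1 in the Trem2ko effect of APOE3 mice (-0.71) and Per2 in the APOE4 effect of Trem2ko mice (0.70). The shares of all genes at that threshold were 6.42%, 15.4%, 6.08% and 10%.

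None of the 9 clock genes was called between females and males by limma, edgeR or DESeq2, and 0.135% of all genes were called by limma. Per3, the third period gene, came closest with a log2 difference of -0.17 in females (SE 0.05, limma p = 0.00207 unadjusted, adjusted p = 0.503). In all, 4 of the 9 clock genes passed an unadjusted p of 0.05 between the sexes, Per3, Nr1d2, Tef and Hlf, each lower in females by sign. Of all genes tested, 5.51% passed at that threshold.

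Genotype accounted for 43.0% of the variance of Nr1d1 over the 88 mice on the log2 scale and for 32.1% of that of Dbp. For Per1 the share was 24.0%, for Per2 23.0%, and for Arntl, the lowest, 6.19%. Most of the variation in these transcripts was therefore between mice of the same genotype. After the mean of each genotype and sex was removed, the residual SD on the log2 scale was 0.49 for Hlf, 0.49 for Per1, 0.45 for Per2, 0.31 for Dbp, 0.26 for Per3, 0.22 for Nr1d2, 0.21 for Arntl, 0.19 for Nr1d1 and 0.11 for Tef. Hlf, Per1 and Per2 were at the 92.9, 92.6 and 90.9 percentiles of this spread among all genes tested, and Tef was at the 3.89 percentile.

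The residuals of some clock genes moved together from mouse to mouse. Of the 36 pairs, 16 passed an adjusted p of 0.05 (Pearson, 2-sided permutation test within genotype and sex with 100000 resamples), 15 with a positive sign and 1 with a negative sign, and 18 passed by Spearman's rho. Per1 and Per2 were the closest pair over the 88 mice, with r = 0.73 (rho = 0.75, permutation adjusted p = 7.2e-05) and a positive sign in 8 of 8 genotypes (0.38 to 0.96). The unadjusted p of this pair, 1e-05, is the smallest these permutations can give. Nr1d2 and Hlf were as close, with r = 0.73 (rho = 0.69, permutation adjusted p = 7.2e-05) and 8 of 8 genotypes positive (0.43 to 0.91). Leaving out the 2 mice farthest from the median of the first gene left r at 0.72 for Per1 with Per2 and at 0.69 for Nr1d2 with Hlf. Not all pairs that passed were high beside other genes. Among the r of Per1 with all genes tested, Per2 was at the 99.8 percentile, Per3 at 91.0 and Nr1d1 at 89.7. Among those of Hlf, Nr1d2 was at the 97.7 percentile and Arntl at 81.8. The share of pairs of other genes that would pass is not given here.

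Dbp varied with Nr1d1 and with Arntl, though Nr1d1 and Arntl were not apart from the genes above. Arntl with Hlf passed over 88 mice (r = 0.29, permutation adjusted p = 0.0432) and without E4127 and E4132 (r = 0.34, permutation adjusted p = 0.0122). Without those 2 mice, Arntl with Per1 (r = 0.36, permutation adjusted p = 0.0217) and Nr1d1 with Per2 (r = 0.26, permutation adjusted p = 0.0380) passed too. Dbp and Nr1d1 had r = 0.61 (rho = 0.48, permutation adjusted p = 7.2e-05), which was 0.42 without E4127 and E4132 (permutation adjusted p = 0.00148), also the 2 mice farthest from the Dbp median. Dbp and Arntl gave the only pair with a negative sign among those that passed, r = -0.45 (rho = -0.37, permutation adjusted p = 0.0012). It was -0.27 without those 2 mice (permutation adjusted p = 0.0380), and the sign was negative in 6 of the 8 genotypes, with a range of -0.83 to 0.62. Per1 and Nr1d1, at r = 0.35 (rho = 0.31, permutation adjusted p = 0.00921), no longer passed without them (r = 0.24, permutation adjusted p = 0.0747). Nr1d1 with Nr1d2, the REV-ERB paralogues, had r = -0.14 and did not pass.

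The makeup of the libraries moved with some of these genes. Libraries with 10 CPM or more of Drd2 (21 mice) had 116 to 333 CPM of Hlf (median 201), against 121 to 487 CPM (median 347) in the other 67 mice, and 64.2 to 176 CPM of Per1 (median 97.5), against 50.05 to 280 CPM (median 133). In the 67 mice alone, 13 of the 36 pairs passed, with r = 0.77 for Per1 with Per2 and 0.73 for Nr1d2 with Hlf. The same pairs stood at 0.69 and 0.74 without the keratin-bearing libraries, where 10 of 36 passed.

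**Figure D3:**
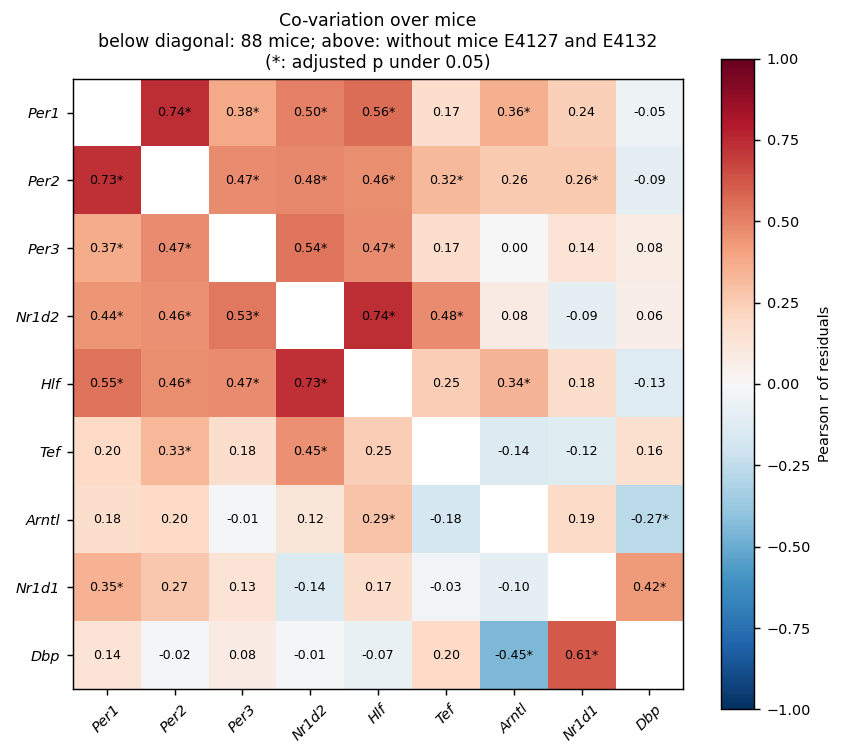
Pearson's r of the residuals (log2(CPM + 0.5) minus the mean of genotype and sex) for the 36 pairs of clock genes, with r as color, over 88 mice below the diagonal and without E4127 and E4132 above it; an asterisk marks an adjusted p under 0.05. Over 88 mice, Per1 with Per2 and Nr1d2 with Hlf are the highest (0.73 each), and Dbp with Arntl is the lowest (-0.45).

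**Figure D4:**
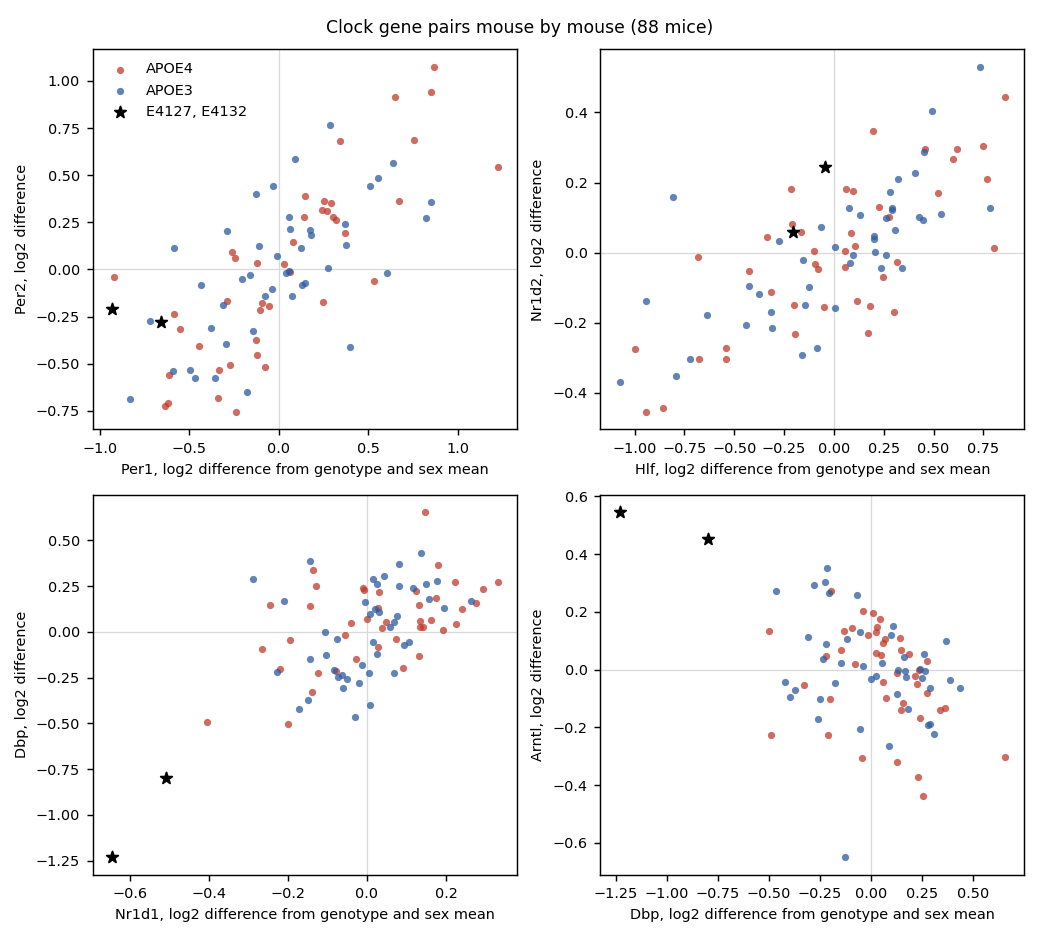
Residuals of 4 pairs of clock genes (log2 difference from the mean of genotype and sex), 1 gene of the pair on each axis and 1 point per mouse (88 mice), colored by APOE isoform with stars for E4127 and E4132. Per1 and Per2 rise together (r = 0.73), and the negative relation of Dbp with Arntl (r = -0.45) is -0.27 without E4127 and E4132.

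The first principal component of the 9 residuals held 37.3% of their variance and the second held 20.99%. The loadings on the first were positive for all 9 genes and highest for Hlf (0.44), Per2 (0.44), Per1 (0.43) and Nr1d2 (0.43). The second set Dbp (0.66) and Nr1d1 (0.53) against Arntl (-0.47).

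The genes most like each clock gene over the 88 mice were found by Pearson's r of the same residuals among all genes tested, as a description chosen for its size and with no test. Per1 was followed by Midn (0.93), Fosl2, a subunit of AP-1 (0.88), Nr4a3, an orphan nuclear receptor (0.88), Stk40 (0.88) and Nab2, a coregulator of EGR factors (0.87). Its lowest were Ttc30b (-0.72), Zfp810 (-0.70) and Eif5 (-0.69). Fosl2, Nr4a3 and Nab2 are known as genes of the early response to stimulation.

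Per2 was followed by Dnajb5 (0.77), Zmynd8 (0.77) and Spred2 (0.76), with Cd180 lowest (-0.70), and Per3 by Slc20a1 (0.74), Coro6 (0.73) and Hdac10 (0.73), with Fat4 lowest (-0.60).

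Among the D-box factors, Hlf was followed by Satb1 (0.95), Mb21d2 (0.95), Cds1 (0.94), Sowahb (0.94) and Ell2 (0.94), with Cdh4 (-0.94), Lmo3 (-0.93) and Rab40b (-0.92) lowest. Satb1 encodes a chromatin organizer. Dbp was followed by Fkbp8 (0.72), Eml2 (0.71) and Fam71e1 (0.71), with Ralgapa1 lowest (-0.65), and Tef by Rxra (0.59), Wdr82 (0.59) and Castor2 (0.58), with Vegfc lowest (-0.53).

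The REV-ERB genes had different followers, Bmyc (0.81), Npdc1 (0.80) and Rnf208 (0.80) for Nr1d1 and Fut9 (0.80), Pcgf5 (0.79) and Slc30a4 (0.77) for Nr1d2. Their lowest were Sh3glb1 (-0.76) for Nr1d1 and Ap1s1 (-0.78) for Nr1d2. Arntl was followed by Dnaja1 (0.65) and Ahsa1 (0.63), both cochaperones of heat shock proteins, and Polr2h (0.59), with Pabpc4 lowest (-0.63).

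The clock genes were also set against the mean residual of lists of other genes, as 1 of 90 relations with p-values adjusted over them. Per1 went with 16 immediate early genes of neuronal activity (r = 0.73, rho = 0.70, permutation adjusted p = 0.00015 over 88 mice), and with 14 genes of the glucocorticoid response (r = 0.55, rho = 0.60, permutation adjusted p = 0.00015). Per2 was closer to the glucocorticoid list (r = 0.69, rho = 0.71, permutation adjusted p = 0.00015) than to the immediate early list (r = 0.38, rho = 0.36, permutation adjusted p = 0.00889). Without the 2 mice farthest from the list median, r was 0.72 for Per1 with the immediate early genes and 0.72 for Per2 with the glucocorticoid list. Hlf went with the immediate early genes (r = 0.62, rho = 0.65, permutation adjusted p = 0.00015). Dbp and Nr1d1 passed with neither list. The closest relation of Hlf was a negative one with markers of striatal neurons (r = -0.76, rho = -0.76, permutation adjusted p = 0.00015). Nr1d2 (-0.43), Per2 (-0.37), Per1 (-0.34) and Per3 (-0.33) passed with these markers too. Markers of microglia passed with Hlf (-0.54), Per1 (-0.51), Nr1d2 (-0.47) and Per2 (-0.42). Dbp, Nr1d1, Arntl and Tef passed with neither set of markers. The 90 relations also held measures of the library. Rn45s passed with Arntl (r = -0.41, permutation adjusted p = 0.0027) and Tef (r = 0.38, permutation adjusted p = 0.00243). Nr1d1 with Rn45s (r = -0.29) passed by Spearman's rho alone (rho = -0.33, permutation adjusted p = 0.0180). Dbp fell with reads per library (r = -0.49, permutation adjusted p = 0.0178), though not by rho (-0.24). Without the 2 libraries farthest from the median depth, its r was -0.25. The glucocorticoid and immediate early lists moved between genotypes too: 9 of the 14 glucocorticoid genes were called lower in E4/Trem2ko than in E3/Trem2ko (median -0.75, against 4.68% of all genes called lower), the comparison in which Per2 was called. In E3/Trem2ko vs E3, 4 of them were called higher (median 0.60) and 2 of the 16 immediate early genes were called higher (median 1.16), against 1.26% of all genes. Their part in the results on Per1 and Per2 was not tested.

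The rest of the loop was followed in 18 other clock genes, all of them measured. In APP/E4 vs APP/E3, 4 of the 18 were called higher and 5 lower, by limma at an adjusted p under 0.05, against 10.9% of all genes called higher and 22.7% called lower. Clock, the partner of Arntl, rose by 0.25, its paralogue Npas2 by 0.18, Rorb, an activator at ROR elements, by 0.42 and Btrc, an F-box protein that acts on PER proteins, by 0.21. Ciart, a repressor of CLOCK and BMAL1, fell by 0.59 (SE 0.15, limma adjusted p = 0.000957), Bhlhe40 (DEC1) by 0.50, Timeless by 0.34, and the kinase genes Csnk1e and Csnk1d, whose proteins phosphorylate PER, by 0.26 and 0.12.

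In APP/E4/Trem2ko vs APP/E3/Trem2ko 1 of the 18 was called, Ciart, which fell by 0.49 (-0.50 without E4127 and E4132, limma adjusted p = 0.0318), against 4.46% of all genes. In E4 vs E3 none was, against 7.72% of all genes. In E4/Trem2ko vs E3/Trem2ko 3 were called, all lower, against 4.68% of all genes called lower, among them Cry1 (-0.43), which encodes the partner of PER proteins, and Csnk1d (-0.23). In the mean over backgrounds, APOE4 mice had 3 of the 18 called higher and 6 lower, against 12.6% of all genes called higher and 27.8% called lower. Ciart (-0.37) and Bhlhe40 (-0.26) were among the 6, and without E4127 and E4132 both passed (-0.38 and -0.27).

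For Trem2, 2 of the 18 were called in E3/Trem2ko vs E3, both higher, Cry1 by 0.50 (limma adjusted p = 0.0329) and Nfil3, a repressor at D-boxes, by 0.77 (adjusted p = 0.0273), against 1.26% of all genes called higher. In the mean over backgrounds 4 were called higher and none lower, Nfil3 (0.38), Bhlhe40 (0.32), Csnk1d (0.09) and Btrc (0.07), against 2.88% of all genes called higher. Without E4127 and E4132 Bhlhe40 no longer passed (0.31, limma adjusted p = 0.0565), and the other three did. In APP/E4/Trem2ko vs APP/E4, where 13.8% of all genes were called, Csnk1d rose by 0.16 and Rorb fell by 0.53, and both passed without those 2 mice (0.17 and -0.48). In APP/E3/Trem2ko vs APP/E3 Btrc rose by 0.17, with 0.319% of all genes called. None of the 18 was called in E4/Trem2ko vs E4 or in any comparison of APP or of sex.

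Of 15 genes listed as outputs of the clock, 12 were measured. In APP/E4 vs APP/E3, 2 of the 12 were called, Coq10b (-0.56) and Por, the electron donor of cytochrome P450 enzymes (-0.25), both lower, against 22.7% of all genes called lower. In APP/E4/Trem2ko vs APP/E4, 3 were called higher, Coq10b (0.34), the glycolytic regulator Pfkfb3 (0.32) and Por (0.20), against 11.3% of all genes called higher. Without E4127 and E4132 Por passed (0.24, limma adjusted p = 0.0119), while Coq10b (0.27, adjusted p = 0.126) and Pfkfb3 (0.28, adjusted p = 0.0815) did not. In E4/Trem2ko vs E3/Trem2ko, Por fell by 0.28. In E3/Trem2ko vs E3, where 2.92% of all genes were called, Ppp1r3c, a targeting subunit of glycogen metabolism, rose by 0.74 and Upp2 fell by 0.41. Averaged over backgrounds, APOE4 mice had 3 of the 12 called lower, Coq10b (-0.33), Por (-0.18) and Leo1 (-0.13), against 27.8% of all genes called lower. In the same mean for Trem2, Trem2ko mice had Ppp1r3c (0.33) and Coq10b (0.30) called higher and Upp2 (-0.21) lower, against 5.79% of all genes called. These 6 calls of the means stood without E4127 and E4132.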

How the data were processed

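The authors sequenced RNA of the cortex and deposited 1 table of CPM values for 88 libraries; per the labels, reads were placed on mm10 and counted with featureCounts, and edgeR was used. Each CPM value was a whole multiple of 1 read of its library (100% of values, within 0.01 read), so reads were recovered for the count tests. The table held 14497 entries, of which 46 repeated ones were left out. Groups came from the labels. CPM was taken as log2(CPM + 0.5), genes whose mean fell under 1 CPM were left out, and 22 comparisons were tested in 1 model of genotype and sex with limma 3.58.1 (trend and robust, R 4.3.3), with Benjamini-Hochberg adjustment over 14086 genes. On simulated data for APP/E4 vs APP/E3, 97% of genes changed by a log2 of 1 and 82% of those changed by 0.5 were recovered, and for E3/Trem2ko vs E3 93% and 64%. The changed genes were drawn at random from those tested. These shares therefore do not hold for Hlf, Per1 and Per2, at the 92.9, 92.6 and 90.9 percentiles of spread. A sequencing batch named in the methods is not in the labels and was not modelled. The mice are separate animals, 1 library each. Alternatives were other pseudocounts (0.1 and 1), no filter, no sex term, only the genotypes compared, TMM scaling, edgeR 4.0.16 (quasi-likelihood) and DESeq2 1.42.0 on recovered reads, correction for gene length and GC content, a striatal covariate, and leaving out mice or libraries with keratin, Ttr (at least 100 CPM) or Alb (at least 50 CPM). The edgeR test called 4753 genes between APP/E4 and APP/E3 mice and, between E3/Trem2ko and E3 mice, 373. Leaving out E4127 with E4132, or libraries rich in Drd2, was added after seeing the data.

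The clock genes and all lists were chosen with earlier results of these data known. Named genes were the 9 clock genes, Trem2, the other clock and clock output genes that were called, and the 5 genes most and 3 least like each clock gene, of which some are printed. Bhlhe41, Nampt, Usp2 and the library markers (Drd2, Ttr, Krt13, Krt4, Krt6a, Rn45s) were named after their values were seen. Of the other clock genes, 1 is counted but not reported here by name.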

Additional observations from a re-analysis of the deposited data

Results flagged for a closer look

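In 36 sets of 1 clock gene in 1 genotype with 4 to 10 mice, 2 held a mouse far from the others by Dixon's criterion, which chance meets in about 1 set in 20. Hlf had 160 CPM in mouse D3833 of E3/Trem2ko, where the other 7 mice had 379 to 459 CPM. Nr1d2 had 164 CPM in mouse D3866 of E3, where the next mouse had 124 CPM and the lowest 88.5 CPM.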

How the results depend on the processing

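Of the 198 differences (9 clock genes in 22 comparisons), 77 changed sign in at least 1 of the 14 alternatives other than single mice left out, and at no such change was the gene called in all 88 mice or under that alternative. Among them were Tef in APP/E4 vs APP/E3 (0.04 with TMM, edgeR 0.04, DESeq2 0.05, and 0.08 without keratin-bearing libraries), Dbp in APP/E4/Trem2ko vs APP/E4 (0.01 without E4127 and E4132) and Arntl in the mean APP effect (0.01 with TMM). The fall of Dbp and Nr1d1 in APP/E4 vs APP/E3 passed in 14 of 14 alternatives (-0.50 to -0.30 for Dbp and -0.38 to -0.20 for Nr1d1) and with any 1 mouse left out. The fits without keratin-bearing libraries kept E4127 and E4132, the mice with the highest Arntl and the lowest Dbp and Nr1d1 levels. The count of the 9 clock genes called changed as follows, and the cause was not tested. In APP/E4/Trem2ko vs APP/E4 it was 1 with TMM, edgeR or DESeq2 (Tef) and 2 without keratin-bearing libraries (Arntl and Tef), against 0. In E3/Trem2ko vs E3 it was 1 with only the 2 genotypes compared (Per1), against 0. In APP/E4/Trem2ko vs APP/E3/Trem2ko it was 0 with only the 2 genotypes or without libraries high in Ttr and 2 without keratin-bearing libraries, against 1. In E4 vs E3 it was 0 with only the 2 genotypes, TMM, edgeR, DESeq2 or no keratin-bearing libraries, and in E4/Trem2ko vs E3/Trem2ko it was 0 with TMM, edgeR, no keratin-bearing libraries or no libraries high in Alb, against 1 each. In APP/E3/Trem2ko vs E3/Trem2ko it was 1 with DESeq2 (Per2), against 0. In the mean Trem2ko effect it was 1 with edgeR, DESeq2 or without E4127 and E4132 (Per1) and 2 with correction for gene length and GC content (Per1 and Dbp), against 0. In the mean APOE4 effect it was 1 without keratin-bearing libraries, against 3, and without them 10 pairs were correlated, against 16. With 1 mouse left out, the count was 0 to 1 in E3/Trem2ko vs E3, 2 to 3 in APP/E4 vs APP/E3, 1 to 2 in APP/E4/Trem2ko vs APP/E3/Trem2ko, 0 to 1 in E4 vs E3, 0 to 1 in E4/Trem2ko vs E3/Trem2ko and 3 to 4 in the mean APOE4 effect. No paired analysis was possible because the labels give no replicate numbers.

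Keratin reads reached 1 CPM in APOE4 libraries alone (at most 0.247 CPM in an APOE3 library), and Rn45s had higher medians in APOE4 genotypes. The hour of collection and the sequencing batch are not given in the labels, and their part in the differences between genotypes cannot be told apart from that of the genotype. Each clock gene had at least 866 reads in every library.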

Other observations

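Mice of 1 genotype whose tag numbers differ by at most 2 were closer in some clock genes than other mice of that genotype. Over 28 such pairs and 442 other pairs, the median absolute difference of the residuals on the log2 scale was 0.23 and 0.42 for Per1, 0.21 and 0.44 for Per2, 0.25 and 0.45 for Hlf and 0.13 and 0.21 for Nr1d2. For Per3 it was 0.25 and 0.23 and for Nr1d1 0.14 and 0.15. Pairs share mice, and what a tag number stands for is not given in the labels, so these values are a description with no test. The fits and the permutations above took mice of 1 genotype and sex as independent of each other. What this closeness does to their p-values was not tested.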
